A study of Mus musculus with 6 samples.

Results

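In all, 10 genes that encode secreted Wnt antagonists were followed in bulk RNA from mouse subventricular zone (SVZ), a stem cell niche in the wall of the lateral ventricle. They are Dkk1, Dkk2, Dkk3, Sfrp1, Sfrp2, Sfrp4, Sfrp5, Frzb, Wif1 and Sostdc1. They were chosen by name, with earlier results of these data known, and all 10 had a row among the 18614 genes of the deposited table. A filter on low counts kept 9 of them among 15126 genes tested, with Dkk1 left out.

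The libraries came from mice given as Zhx2+/+ (wild type, WT 1 to WT 3) and Zhx2Δ/Δ (KO 1 to KO 3), with 3 libraries each. Zhx2 encodes a zinc finger and homeobox transcriptional repressor. No other allele or agent is named, and the sources used here do not give age, sex or how the deletion was made. The genotype tags of KO 2 and KO 3 name ZHX3 and ZHX4, while their titles name ZHX2. Whether each library is a separate animal is not stated in the labels. The p-values therefore reflect library-to-library spread, part or all of which may be technical.

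Libraries held between 17037103 and 17685856 estimated counts. Zhx2, the gene labelled as deleted, was at 39.8, 40.5 and 38.2 CPM (counts scaled to the library's TMM-adjusted total) across WT 1 to 3 and at 67.1, 57.8 and 56.3 CPM across KO 1 to 3. It was thus higher in every library labelled KO than in every WT library, as were 8.0% of all genes tested. The log2 fold change of Zhx2 was 0.61 (SE 0.10) in edgeR, with an adjusted p of 0.163. DESeq2 called Zhx2 as higher (adjusted p = 0.00142), as it did 0.0397% of all genes. Directions are stated for the label KO relative to the label WT. Markers of the labelled tissue were present in all 6 libraries, with summed levels of 899 to 1269 CPM for 9 neuroblast genes and 5517 to 7077 CPM for 12 genes of quiescent stem cells and astrocytes. Markers of striatal neurons, a neighbouring tissue, ranged from 780 CPM in WT 1 to 9178 CPM in WT 2.

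Wnt ligands signal by binding a Frizzled receptor together with the co-receptor Lrp5 or Lrp6. Secreted antagonists stop this outside the cell in different ways. Sfrp proteins and Frzb carry a Frizzled-like cysteine-rich domain and bind Wnt ligands, as does Wif1 through a domain of its own. Dkk1 and Dkk2 bind the co-receptors instead, as does Sostdc1, which also binds bone morphogenetic proteins. In the SVZ, Wnt signals act on the proliferation and differentiation of neural stem and progenitor cells.

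Sostdc1 and Sfrp5 were the 2 members whose levels were lower in every library labelled KO than in every WT library. Mean Sostdc1 was 20.6-fold lower and mean Sfrp5 4.70-fold lower in CPM. Sfrp1 had a lower mean in the libraries labelled KO, with overlapping groups, and Dkk3, Frzb, Sfrp2, Sfrp4, Wif1, Dkk2 and Dkk1 overlapped between groups as well. No member passed an adjusted p of 0.05 in edgeR's quasi-likelihood test with Benjamini-Hochberg adjustment, where 0.0% of all genes did. At an unadjusted p under 0.05, 3 of the 9 tested members were lower (Sostdc1, Sfrp5 and Sfrp1) and none higher, beside 6.39% of all genes lower and 2.68% higher. Groups did not overlap in 2 of 9 members, both lower, beside 16.7% of all genes, 8.74% lower and 8.0% higher. DESeq2 called 1 of 9 members, Sostdc1, as lower and none as higher, beside 2.02% of all genes lower and 0.0397% higher, and limma-voom called none. The median log2 fold change of the 9 members was -0.02, and that of all genes tested was 0.02. The members' median changed sign with the libraries used, from -0.31 without KO 1 to 0.17 without KO 3.

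**Figure D1:**
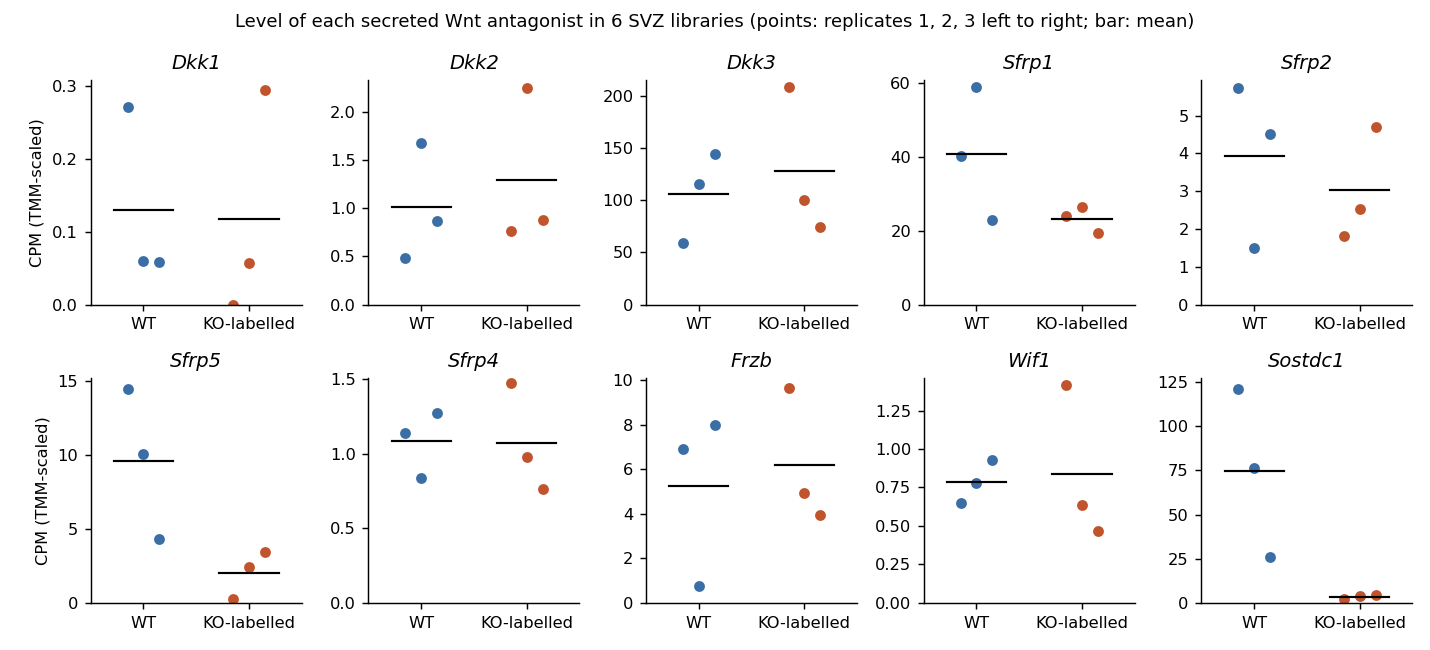
Level of each of the 10 members (vertical axis, TMM-scaled CPM, a separate scale per gene) in the WT and KO-labelled libraries. Points are replicates 1, 2 and 3 from left to right and bars are group means; the KO-labelled points lie below all WT points for Sostdc1 (2.30 to 4.40 against 26.2 to 121 CPM) and Sfrp5 (0.236 to 3.46 against 4.29 to 14.5 CPM), and overlap with WT in the other 8 panels.

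Compared per transcript length, Sostdc1 and Dkk3 made up most of the antagonist transcripts in WT. Their levels there were 43.6 ± 28.9 and 31.7 ± 12.5 FPKM (the authors' counts per transcript length and library size; mean ± SD, n = 3), and their ranges overlapped. Sfrp1 followed at 9.32 ± 3.94 FPKM and Sfrp5 at 5.15 ± 2.85 FPKM, again with overlapping ranges. Sfrp2 (2.17 ± 1.35 FPKM) and Frzb (1.83 ± 1.36 FPKM) were lower and could not be ordered beyond their spread. Sfrp4, Wif1, Dkk2 and Dkk1 had means of 0.627, 0.353, 0.267 and 0.06 FPKM.

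In the libraries labelled KO, Dkk3 stood first at 37.4 ± 20.1 FPKM and Sfrp1 second at 5.24 ± 0.820 FPKM, with ranges that did not overlap. Frzb (2.08 ± 0.992 FPKM), Sostdc1 (2.06 ± 0.681 FPKM), Sfrp2 (1.597 ± 0.727 FPKM) and Sfrp5 (1.08 ± 0.873 FPKM) followed within each other's spread. Sostdc1 thus had the highest mean of the 10 genes in WT and the fourth in the libraries labelled KO. Its share of the summed FPKM of the 10 genes was 62.8%, 44.2% and 20.9% across WT 1 to 3 and 1.76%, 5.42% and 7.08% across KO 1 to 3. The share of Dkk3 was 15.9%, 34.6% and 59.7% in WT and 82.7%, 67.8% and 62.1% in the libraries labelled KO. Neither share overlapped between groups, and the exact permutation p was 0.1 for each, the smallest that 3 against 3 libraries allow (two-sided). Shares of one sum are tied, so that a lower share of Sostdc1 raises the others, and these are not separate results. The FPKM of Dkk3 itself overlapped between groups. The shares of Sfrp4 and Wif1, whose levels overlapped as well, also had an exact permutation p of 0.1.

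**Figure D2:**
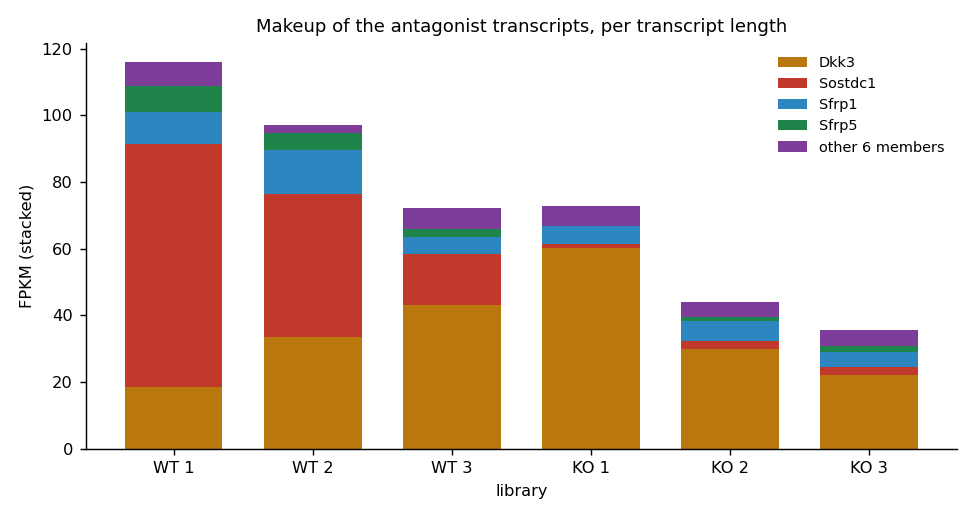
Summed FPKM of the 10 members (vertical axis) in each library, split into Dkk3, Sostdc1, Sfrp1, Sfrp5 and the remaining 6. The Sostdc1 band is 72.9, 43.0 and 15.1 FPKM high across WT 1 to 3 and 1.28, 2.39 and 2.52 FPKM across KO 1 to 3, while the Dkk3 band overlaps between groups.

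The summed FPKM was 116, 97.1 and 72.3 across WT 1 to 3 and 72.7, 44.1 and 35.6 across KO 1 to 3. KO 1, with the most Dkk3, lay just above WT 3, so the groups overlapped (exact permutation p = 0.2). Without Dkk3 the sum was 97.5, 63.6 and 29.1 FPKM in WT and 12.6, 14.2 and 13.5 FPKM in the libraries labelled KO. Without Dkk3 and Sostdc1 it was 24.7, 20.6 and 14.0 FPKM in WT and 11.3, 11.8 and 10.97 FPKM in the libraries labelled KO. Both reduced sums were lower in every library labelled KO. They were chosen after the values had been seen, so the exact permutation p of 0.1 of each is not a test. The second sum still holds Sfrp1 (mean 9.32 FPKM in WT and 5.24 FPKM in the libraries labelled KO) and Sfrp5 (5.15 and 1.08 FPKM). Each of the remaining members overlapped between groups by itself, so the sum does not show that these were lower.

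Sostdc1 encodes a cystine-knot antagonist, also known as ectodin or Wise, and is known to be expressed by choroid plexus epithelium. It is a plus-strand gene of chromosome 12 (36314169 to 36318452, mm10) that overlaps no other annotated gene. Its estimated counts were 2242, 1272 and 451 across WT 1 to 3 and 39, 72 and 75 across KO 1 to 3, all on 1 curated transcript. In CPM these are 121, 76.3 and 26.2 against 2.30, 4.15 and 4.40. WT 1 was the highest and WT 3 the lowest WT library, 4.64-fold apart, and WT 3 was still above all libraries labelled KO.

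The log2 fold change of Sostdc1 was -4.36 (SE 0.62). Of all tested genes, 0.231% lay below -4, among them the choroid plexus markers Ttr (-7.69) and Slc4a5 (-7.55). Sostdc1 did not pass in edgeR (adjusted p = 0.151). It passed in DESeq2 (log2 fold change -4.38, SE 0.50, adjusted p = 2.46e-15) and in each of the 6 DESeq2 fits with a library left out (highest adjusted p = 7.49e-05). Without WT 3, edgeR called it as well (log2 fold change -4.77, adjusted p = 0.00757), one of 0.895% of genes lower in that fit. Its adjusted p lay between 2.46e-15 and 0.827 over 16 alternatives. KO 1 alone, the library whose tag names ZHX2, gave -5.02 against WT.

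**Figure D3:**
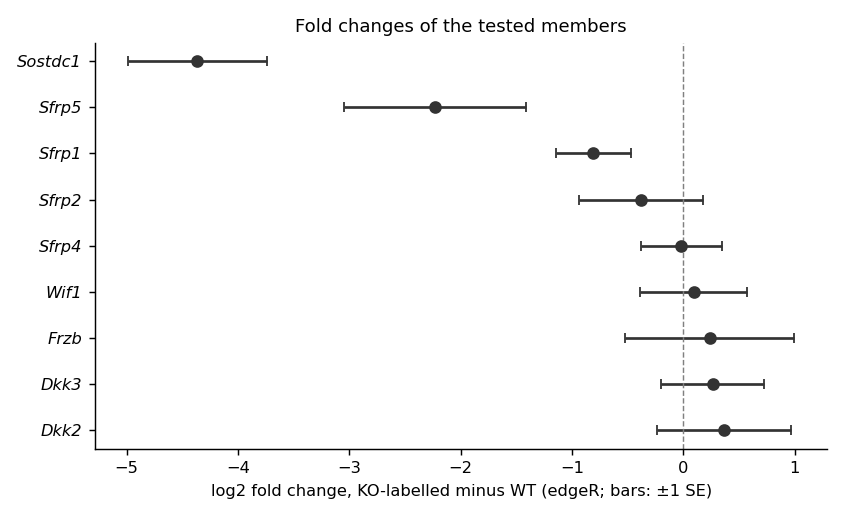
Log2 fold change of the 9 tested members (horizontal axis, KO-labelled minus WT, edgeR), with bars of 1 SE on each side. Sostdc1 (-4.36), Sfrp5 (-2.23) and Sfrp1 (-0.81) lie below 0 by more than 2 SE, and the other 6 lie within 1 SE of 0; no member passed the adjusted threshold in edgeR.

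Sfrp5 belongs to the same branch of the Sfrp family as Sfrp1 and Sfrp2. It is a minus-strand gene of chromosome 19 (42197971 to 42202252, mm10). Its counts were 267, 167 and 74 across WT 1 to 3 and 4, 42 and 59 across KO 1 to 3. The levels were 14.5, 10.02 and 4.29 CPM in WT and 0.236, 2.42 and 3.46 CPM in the libraries labelled KO. The groups did not overlap, but WT 3 and KO 3 were close, and KO 1 was 14.7-fold below KO 3. Of all genes tested, 0.496% differed by more than 10-fold between the highest and lowest KO-labelled library, with libraries without counts of the gene left out. Neither edgeR (log2 fold change -2.23, SE 0.82, adjusted p = 0.499) nor DESeq2 (adjusted p = 0.109) called Sfrp5, and without KO 1 its log2 fold change was -1.70.

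Promoter sequence was matched for 6 of the 10 members in RefSeq on GRCm38.p6, the mm10 sequence, and Sostdc1 was not among them. The 250 bases before the start in that table are given for Sfrp5, whose groups did not overlap, for its relative Sfrp2, whose groups did, and for Dkk1, a known Wnt target gene. They are read 5′ to 3′ on each gene's own strand. Capitals mark the TCF/LEF core CTTTG, the site of the Wnt-responsive factors, and the OTX motif TAATCC, that of the choroid plexus regulator Otx2, on either strand. The windows are chr19:42202253-42202502 (minus strand) for Sfrp5, chr3:83766071-83766320 (plus strand) for Sfrp2 and chr19:30549497-30549746 (minus strand) for Dkk1. The 20 bases that follow each window occur in an annotated transcript of its gene, but whether a transcript starts there was not checked. The Sfrp2 window lies inside the gene's full span, which begins at 83765750.
Sfrp5: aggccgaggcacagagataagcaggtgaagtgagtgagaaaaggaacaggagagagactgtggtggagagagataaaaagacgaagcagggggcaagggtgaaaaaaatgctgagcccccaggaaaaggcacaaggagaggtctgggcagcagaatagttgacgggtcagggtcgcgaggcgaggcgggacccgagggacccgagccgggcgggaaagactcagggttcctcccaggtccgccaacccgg
Sfrp2: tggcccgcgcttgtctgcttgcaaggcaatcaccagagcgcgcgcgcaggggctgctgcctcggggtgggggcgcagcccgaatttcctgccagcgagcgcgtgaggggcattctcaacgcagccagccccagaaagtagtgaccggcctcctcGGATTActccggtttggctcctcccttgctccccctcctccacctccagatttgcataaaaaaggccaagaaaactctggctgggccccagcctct
Dkk1: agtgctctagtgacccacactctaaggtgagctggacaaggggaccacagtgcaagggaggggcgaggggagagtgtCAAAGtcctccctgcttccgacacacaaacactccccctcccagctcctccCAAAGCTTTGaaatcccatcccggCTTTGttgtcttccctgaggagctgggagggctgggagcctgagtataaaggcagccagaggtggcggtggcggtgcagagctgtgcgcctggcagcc
The Sfrp5 window held neither string. The Sfrp2 window held 1 match to TAATCC, on the opposite strand and starting 96 bases before the start, and none to CTTTG. The Dkk1 window held 4 matches to CTTTG, 2 on each strand, of which 2 abut so that they read as one run of capitals. The windows of Dkk2, Frzb and Wif1, not printed here, held 1 match to CTTTG each and none to TAATCC. Of 32851 promoter windows of this length, 48.6% held CTTTG and 6.25% held TAATCC, so a match to the first is common. These are matches of letters in a short window and not binding sites.

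Sfrp1, another Wnt-binding Sfrp, was the third member at an unadjusted p under 0.05. It is a plus-strand gene of chromosome 8 (23411383 to 23449632, mm10). Its levels were 40.3, 59.0 and 23.0 CPM across WT 1 to 3 and 24.2, 26.4 and 19.3 CPM across KO 1 to 3. WT 3 fell inside the range of the libraries labelled KO, and WT 2 was the highest. In edgeR, Sfrp1 had a log2 fold change of -0.81 (SE 0.33) and missed the threshold (adjusted p = 0.550). Without WT 2 it was -0.46, while without WT 3 it was -1.09 (adjusted p = 0.136 in edgeR, and 0.00262 in DESeq2, which called it in that fit only). A predicted transcript took 32.9% of the Sfrp1 counts in KO 2 and none in WT 2, WT 3 or KO 1. With curated transcripts only, the log2 fold change was -1.0005 (adjusted p = 0.572).

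The choroid plexus, the epithelium that makes cerebrospinal fluid, hangs in the lateral ventricle beside the SVZ, and its markers were lower in the same libraries as Sostdc1 and Sfrp5. All 20 tested markers were lower in the libraries labelled KO without overlap, beside 8.74% of all genes. The marker lists were chosen with earlier results of these data known. Log2 fold changes of the 20 markers ran from -7.69 to -1.76, with a median of -5.18. DESeq2 called all 20 markers as lower, beside 2.02% of all genes, and edgeR called none. Their summed level was 5552 to 23485 CPM in WT and 418 to 622 CPM in the libraries labelled KO. Ttr, which encodes the carrier transthyretin, was at 15337, 10670 and 3133 CPM across WT 1 to 3 and at 13.0, 114 and 13.6 CPM across KO 1 to 3. The chloride channel gene Clic6 was still at 14.8 to 32.4 CPM in the libraries labelled KO, and 1 marker, Tmem72, had 0 counts in KO 1. Within WT, WT 1 was the highest and WT 3 the lowest library for the summed markers, for Sostdc1 and for Sfrp5. Markers of ependymal cells, which line the ventricle, were lower as well, in 14 of 14 genes with 11 free of overlap, at summed levels of 240 to 348 CPM in WT and 115 to 167 CPM in the libraries labelled KO. The part of RNA from either cell type in these results was not tested. In bulk RNA, fewer cells of a type and less RNA per cell cannot be told apart.

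**Figure D4:**
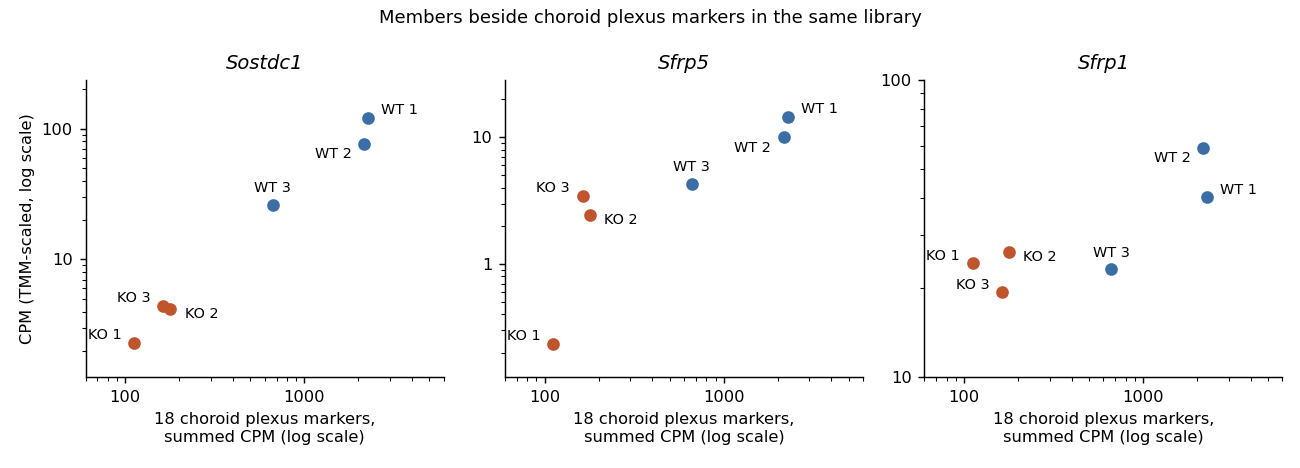
CPM of Sostdc1, Sfrp5 and Sfrp1 (vertical axes, log scale) against the summed CPM of 18 choroid plexus markers, Ttr and Enpp2 left out (horizontal axes, log scale), with 1 point per library. Sostdc1 is highest in WT 1 and WT 2 and lowest in KO 1, as the markers are; Sfrp5 in KO 2 and KO 3 (2.42 and 3.46 CPM) lies near WT 3 (4.29 CPM) at a lower marker level, and Sfrp1 spans a narrow range of 19.3 to 59.0 CPM.

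Ratios within a library, chosen after the values had been seen, set the members beside these markers. Per 1000 counts of the 18 markers without Ttr and Enpp2, Sostdc1 had 53.2, 35.3 and 39.4 counts across WT 1 to 3 and 20.5, 23.3 and 27.0 counts across KO 1 to 3. This ratio varied 2.59-fold over the 6 libraries, where the CPM of Sostdc1 spanned 2.30 to 121. It was still lower in every library labelled KO than in every WT library. The make-up of the denominator differed between the groups, however. Car12, Slc31a1, Clic6 and Lbp gave 27.8% to 33.4% of the 18-gene counts in WT and 68.9% to 79.0% in the libraries labelled KO. The list gene Kl, set against the other 17 genes in the same way, had 227 to 273 counts in WT and 39.6 to 56.0 counts in the libraries labelled KO, a 6.90-fold range. Sfrp5 had 6.33, 4.63 and 6.46 counts per 1000 in WT and 2.11, 13.6 and 21.2 counts in the libraries labelled KO, so that KO 2 and KO 3 were above WT and KO 1 below. Sfrp1 had 17.6, 27.2 and 34.6 counts in WT and 216, 148 and 118 counts in the libraries labelled KO. Per 1000 Ttr counts, Sostdc1 was nearly constant in WT, at 7.91, 7.16 and 8.35 counts, and was at 176, 36.2 and 323 counts across KO 1 to 3.

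Likeness of pattern was measured as the root mean square distance between log2 CPM profiles over the 6 libraries, each centred on its own mean, against 12298 genes of at least 5 CPM. The genes nearest to Sostdc1 were Col8a1 (distance 0.27), Abca4 (0.31) and Prlr (0.36), where the Sostdc1 profile itself had a root mean square of 2.18. Prlr is on the choroid plexus list, but not every gene of that list was near. Kl (0.75) ranked 18 and Slc4a5 (1.54) ranked 127, and Ttr (2.24) ranked 7959, farther than the size of the profile itself. Nearest to Sfrp5 were Slc29a4 (0.68), Epn3 (0.69) and Clic6 (0.69), the last also on that list, at a profile size of 1.73. Kl (1.71, rank 4418), Slc4a5 (2.42, rank 12190) and Ttr (3.04, rank 12273) were far from Sfrp5. Nearest to Sfrp1 were Plvap (0.09), a gene of fenestrated endothelium, Nqo1 (0.18) and Cd59a (0.20), at a profile size of 0.55. These distances describe 6 libraries that share the 2 groups.

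Among the Dickkopf genes, Dkk3 was the most abundant and the most divergent, and its place in Wnt signalling is less settled than that of Dkk1 and Dkk2. It is a minus-strand gene of chromosome 7 (112116019 to 112159482, mm10). Dkk3 was at 59.4, 115 and 145 CPM across WT 1 to 3 and at 208, 101 and 74.7 CPM across KO 1 to 3. KO 1 was the highest library and WT 1 the lowest, and the other 4 lay between them in mixed order. For Dkk3 the log2 fold change was 0.26 (SE 0.47, adjusted p = 0.892 in edgeR), and it was -0.28 without KO 1. Of 9 marker genes of cortical and septal excitatory neurons, 7 were likewise highest in KO 1 and next in WT 3. Slc17a6 (highest in WT 1 at 56.8 CPM, lowest in KO 1 at 7.07 CPM) and Cux2 (highest in WT 3 at 70.2 CPM, with 49.5 CPM in KO 1) were not. This order was the one seen in Dkk3, and the share of all genes that have it was not counted. The summed levels, most of them from Slc17a7 in KO 1 and WT 3, were 203, 125 and 710 CPM in WT and 1274, 276 and 123 CPM across KO 1 to 3. The lower ranks differed, with WT 1 the lowest library for Dkk3 and KO 3 for the summed markers. The part of these neurons in the Dkk3 values was not tested. The genes nearest to Dkk3 in pattern were Adcy1 (distance 0.12), Kcnj9 (0.17) and Klf10 (0.19), at a profile size of 0.59. One curated transcript held 68.2% to 91.8% of the Dkk3 counts, and a predicted one had counts only in WT 3 (112) and KO 3 (243), as the authors' estimated split between overlapping transcripts gives it.

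Dkk2 was low, and Dkk1 was near the limit of detection. Dkk2 had 9, 28 and 15 counts across WT 1 to 3 and 13, 39 and 15 counts across KO 1 to 3, with replicate 2 the highest of either group. Its log2 fold change was 0.37 (SE 0.60, adjusted p = 0.883 in edgeR), and -0.29 without KO 2. Dkk1 had 5, 1 and 1 counts in WT and 0, 1 and 5 counts in the libraries labelled KO. The upper limit that a count of 0 allows, 3 counts, is 0.177 CPM in KO 1, so a difference in Dkk1 was not detectable at this depth.

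Sfrp2 was at 5.74, 1.501 and 4.52 CPM across WT 1 to 3 and at 1.83, 2.53 and 4.70 CPM across KO 1 to 3. WT 2 was the lowest of all 6 libraries and WT 1 the highest. Its log2 fold change was -0.38 in edgeR (SE 0.55, adjusted p = 0.862), and 0.0015 without WT 1. An annotated antisense gene, Gm26771, overlaps Sfrp2. The sources used here do not say whether counting used strand, so reads from the antisense gene cannot be told apart from Sfrp2 reads.

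Frzb and Sfrp4 form the other branch of the Sfrp family. Frzb, also known as Sfrp3, was at 6.93, 0.780 and 8.01 CPM across WT 1 to 3 and at 9.66, 4.95 and 3.93 CPM across KO 1 to 3. WT 2 stood apart with 13 counts, against 67 to 164 in the other 5 libraries. The highest WT library was 10.3-fold above the lowest. Of all genes tested, 1.14% spread by more than 10-fold within WT, with libraries without counts of the gene left out. The log2 fold change of Frzb was 0.24 (SE 0.76, adjusted p = 0.948 in edgeR) with WT 2 and -0.28 without it. WT 2 was also the library with the most striatal markers, whose part in the Frzb values was not tested. The genes nearest to Frzb in pattern were Sstr3 (distance 0.16), Sidt1 (0.21) and Doc2a (0.23), at a profile size of 1.14.

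Sfrp4 had the narrowest spread over the 6 libraries among the tested members (profile size 0.30), with 21, 14 and 22 counts across WT 1 to 3 and 25, 17 and 13 counts across KO 1 to 3. The levels were 0.840 to 1.28 CPM in WT and 0.763 to 1.47 CPM in the libraries labelled KO. The log2 fold change was -0.02 (SE 0.36, adjusted p = 0.992 in edgeR). Wif1 was as low, with 12, 13 and 16 counts in WT and 24, 11 and 8 counts in the libraries labelled KO. KO 1 was its highest library and KO 3 its lowest, and the log2 fold change was 0.09 (SE 0.48, adjusted p = 0.972 in edgeR). At these counts, an SE of 0.36 to 0.48 leaves changes of that size undetected.

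The other genes of the pathway came from lists of names, chosen with earlier results of these data known. Of 12 tested extracellular or membrane inhibitors outside the family, none was at an unadjusted p under 0.05, 3 had a log2 fold change below 0 and 9 above, and the median was 0.18. They include the Dkk co-receptors Kremen1 (-0.15, SE 0.26) and Kremen2 (0.43, SE 0.43) and the membrane inhibitor Apcdd1 (0.26, SE 0.19). Bambi (-0.44, SE 0.23) was listed as well, though it is a decoy receptor for bone morphogenetic proteins and not for Wnt ligands. Of 17 receptors and co-receptors, 6 were lower and 1 higher at an unadjusted p under 0.05, with a median of -0.44. Of all genes, 6.39% were lower and 2.68% higher at that level. DESeq2 called 4 of the 17, all lower, beside 2.02% of all genes lower, and edgeR none. The co-receptor Lrp5 (-0.77, SE 0.14) and the receptors Fzd7 (-1.75, SE 0.35) and Fzd4 (-1.20, SE 0.30) had the smallest p. The 1 higher gene was Lrp4 (0.58, SE 0.18).

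Of 16 ligand and secretion genes, 1 was lower and 1 higher at an unadjusted p under 0.05, with a median of 0.02. These were Wls, the carrier that brings Wnt ligands to the cell surface (-0.59, SE 0.15), and Wnt4 (0.78, SE 0.29). Of 9 R-spondin and receptor turnover genes, 1 was lower and 1 higher, with a median of 0.32. R-spondins raise Wnt signalling by protecting receptors from removal; Rspo3 was the higher gene (0.92, SE 0.29) and the receptor-removing ligase gene Znrf3 the lower one (-0.34, SE 0.14). Of 15 canonical Wnt targets, 3 were lower and none higher, beside 6.39% and 2.68% of all genes. The 3 were Prox1 (-0.90, SE 0.27), Lef1 (-0.66, SE 0.24) and Znrf3. The median of the targets was 0.12, with 6 genes below 0 and 9 above. This list shares Wif1, Znrf3 and other genes with the lists above, so Znrf3 is counted in both. No gene of these lists passed the adjusted threshold in edgeR, beside 0.0% of all genes. Sostdc1 and Sfrp5 had the lowest log2 fold changes of all the Wnt genes listed.

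**Figure D5:**
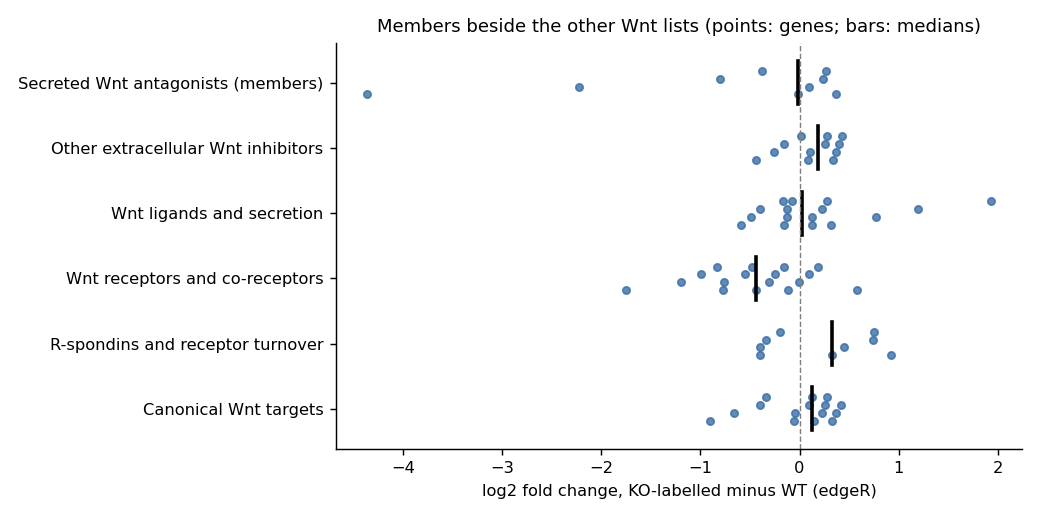
Log2 fold change (horizontal axis, KO-labelled minus WT, edgeR) of each tested gene in the member list and in 5 other Wnt lists, with a vertical bar at each list's median. The members' median is -0.02, and their 2 leftmost points, Sostdc1 at -4.36 and Sfrp5 at -2.23, lie to the left of every point of the other lists; receptors and co-receptors have the lowest median (-0.44).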

How the data were processed

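Bulk RNA from the SVZ was measured in 3 WT and 3 KO-labelled libraries, grouped by title. The deposited table gives the authors' estimated counts and FPKM for 61481 RefSeq transcripts; FPKM was recognised from the deposited values. The submitters' processing notes name the build mm10 and, as a tool, limma 3.40.6; the sources used here do not name the aligner, the counting tool or the strand.

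Transcript values were added up for each NCBI gene number and the sums rounded. Symbols came from RefSeq (GRCm38.p6) for 18489 of 18614 genes; rows without one held 0.104% to 0.140% of counts. No 2 libraries of a group agreed within sampling noise (chi-square per degree of freedom 21.7 to 95.4). The test was edgeR 4.0.16 under R 4.3.3 (scaling by TMM, filterByExpr with a minimum count of 10, robust quasi-likelihood F test, two-sided), adjusted over 15126 genes by Benjamini-Hochberg at 0.05. DESeq2 1.42.0, limma-voom 3.58.1, other scalings and filters, curated transcripts, a replicate block and left-out libraries were alternatives. The procedure was tested on simulated counts. An SE is the fold change over the root of its F statistic; CPM is TMM-scaled; FPKM is summed over a gene's transcripts. The members, lists and rules for named genes were chosen with earlier results of these data known. All 10 members were named, and up to 3 genes of each other list by smallest p. Others were named after their values were seen, as Kremen1, Clic6 and Ttr for their role and Lrp4 for its direction.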

Additional observations from a re-analysis of the deposited data

How the results depend on the processing

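Sostdc1, Sfrp5 and Sfrp1 kept their direction under every alternative that gave them a value (16, 15 and 16). Of all genes, edgeR called 0, with 1372 at an unadjusted p under 0.05; DESeq2 called 311, and with single libraries left out edgeR called 0 to 137, the 137 without WT 3. The count of members called was 0, but 1 with DESeq2 and, in edgeR, 0 to 1 with single libraries left out; the edgeR call was Sostdc1 without WT 3, where fewer samples were fitted. DESeq2 with single libraries left out called 1 member, and 2 without WT 3 (Sostdc1 and Sfrp1). Under the other alternatives both counts were 0. The median of the members, -0.02, was -0.29 with the filter of 5 CPM, which kept 4 of them, -0.39 with KO 1 alone, and -0.31 to 0.17 with single libraries left out. Members with small fold changes changed sign. With KO 1 alone against WT, Dkk2 was at -0.39 and Sfrp4 at 0.44; Wif1 was at -0.0436 with limma-voom. With single libraries left out, Dkk2 ranged from -0.29 to 0.93, Dkk3 from -0.28 to 0.55, Sfrp2 from -0.85 to 0.0015, Sfrp4 from -0.31 to 0.17, Frzb from -0.28 to 0.67 and Wif1 from -0.50 to 0.38. The cause was not tested.

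Same-numbered libraries did not deviate together (correlations of -0.16, -0.07 and -0.04), so the numbers were not taken to pair them. With the replicate block 0 genes and 0 members were called, Sostdc1 was at -4.14 (adjusted p = 0.321) and Wif1 at -0.0083. The scalings shifted the median of all genes by less than 0.1 on the log2 scale. Dkk1 was tested only without a filter, and Dkk2, Sfrp2, Sfrp4, Sfrp5 and Wif1 were not kept by the filter of 5 CPM.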
